A study of Mus musculus with 12 samples.

Results

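The 10 genes described here are the Wnt ligand Wnt5a, the secreted Wnt antagonists Wif1, Sfrp1, Sfrp2 and Dkk3, and the genes Rnf43, Znrf3, Axin2, Lef1 and Nkd1, which are best known as feedback genes of Wnt signalling. They were chosen by name, with earlier results of these data known. Every gene probe that the array files label with 1 of these symbols was taken. This found 12 of the 39429 gene probes on the array, 2 each for Axin2 and Nkd1 and 1 for each of the other genes. All 12 were among the 29972 probes kept for testing, which stood for 24149 genes. The RNA came from cultured mouse neural stem cells of E12.5 cerebral cortex. The knockdown cells were stably transfected against JMJD3, the histone H3 lysine 27 demethylase encoded by Kdm6b, and the control cells with a random shRNA. Each line received transforming growth factor beta (TGFb, 5 ng/ml for 2.5 h) or vehicle, and each of the 4 groups had 3 arrays: knockdown with TGFb, knockdown with vehicle, control with TGFb and control with vehicle. Only 1 shRNA against JMJD3 is named in the labels, so its sequence, the transfected population and the lower Kdm6b cannot be told apart.

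In the Wnt pathway, a secreted Wnt ligand binds a Frizzled receptor and the co-receptor Lrp5 or Lrp6. In the canonical branch this stops the cytoplasmic complex built on Axin from destroying beta-catenin, which then enters the nucleus and acts with TCF and LEF factors on target genes. Several of these targets act back on the pathway at the receptor, in the cytoplasm or in the nucleus. Some secreted antagonists bind Wnt ligands outside the cell. In the embryonic cortex Wnt signals take part in the patterning of the tissue and in the choice of progenitors between dividing and differentiating.

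Array levels are given as the log2 of the processed signal divided by the same array's 75th percentile, so 0 is a signal equal to that percentile, and levels of different probes are not set against each other. The 75th percentile lay between 3175 and 4462, between 70.3% and 78.4% of probes were well above background, and r between replicates was 0.993 to 0.998 over all genes. Kdm6b had levels of -2.01, -2.12 and -2.01 in knockdown cells with TGFb, -1.95, -1.90 and -1.96 in knockdown cells with vehicle, -0.67, -0.69 and -0.59 in control cells with TGFb and -0.84, -0.73 and -0.75 in control cells with vehicle. It was 2.63-fold lower in the knockdown with TGFb and 2.24-fold lower without it (limma adjusted p of 3.0e-08 and 1.1e-07). The arrays lay on 4 slides. Slide 1 held vehicle arrays only and slide 4 TGFb arrays only, slide 2 lacked knockdown cells with TGFb, and slide 3 held all 4 groups, so a fit with the slide as a block and the differences within slides are given beside the results. Whether the 3 replicates of a group were separate cultures is not in the labels, so the p-values cover the spread among these arrays only, and that spread may be technical.

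All 10 neural stem cell markers, Sox2, Nes and Fabp7 among them, were well above background on all 12 arrays. Knockdown raised 3 and lowered 2 of them with TGFb, where 28.9% of all genes were called. With vehicle it raised 3 and lowered 4, where 27.8% of all genes were called. TGFb raised 2 and lowered 2 in each line, where 9.47% of all genes were called in knockdown and 10.1% in control cells. The signal of the 10 markers, summed as a multiple of the 75th percentile, was 258 to 279 in knockdown cells with TGFb and 237 to 265 with vehicle. In control cells it was 232 to 256 with TGFb and 247 to 264 with vehicle. Of the markers of other cells, all 4 astrocyte and all 6 oligodendrocyte markers were kept. So were 5 of 6 of neurons (not Neurod6), 5 of 6 of fibroblasts and meninges (not Lum), 3 of 4 of endothelium (not Cdh5), 3 of 4 of microglia (not Aif1) and 2 of 4 of choroid plexus and cortical hem (not Ttr and Lmx1a). Kdr of endothelium and Itgam of microglia were well above background on all 12 arrays, and no marker of either list was called in any comparison. The 4 astrocyte markers summed to 3.54 to 4.36 in knockdown cells with TGFb, 3.31 to 3.70 in knockdown cells with vehicle, 4.01 to 4.29 in control cells with TGFb and 3.45 to 3.78 in control cells with vehicle, and 1 of the 4 rose in each of the 4 comparisons. The summed signal of the 6 oligodendrocyte markers was 8.66 to 9.56 in knockdown cells with TGFb, 12.03 to 12.97 in knockdown cells with vehicle, 8.08 to 8.70 in control cells with TGFb and 14.3 to 15.8 in control cells with vehicle, and 2 of the 6 fell with TGFb in each line. The 5 neuronal markers kept summed to 11.03 to 12.47 in knockdown against 9.996 to 10.44 in control cells with TGFb, and to 11.9 to 12.9 in knockdown against 10.9 to 11.6 in control cells with vehicle. The 5 fibroblast and meningeal markers kept summed to 5.18 to 5.64 in knockdown against 4.31 to 5.07 in control cells with TGFb, and to 5.89 to 6.78 in knockdown against 4.94 to 5.45 in control cells with vehicle. Knockdown raised 0 and lowered 1 of the oligodendrocyte markers with TGFb, and raised 1 and lowered 2 with vehicle. Of the neuronal markers it raised 3 and lowered 1 with TGFb, and raised 2 and lowered 1 with vehicle. Of the fibroblast and meningeal markers it raised 1 and lowered 0 with TGFb, and raised 1 and lowered 1 with vehicle. The shares of all genes called are those given above. The part of these cell types in the changes of the Wnt genes was not tested. In RNA from whole cultures, fewer cells of a type and less RNA per cell cannot be told apart.

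**Figure D1:**
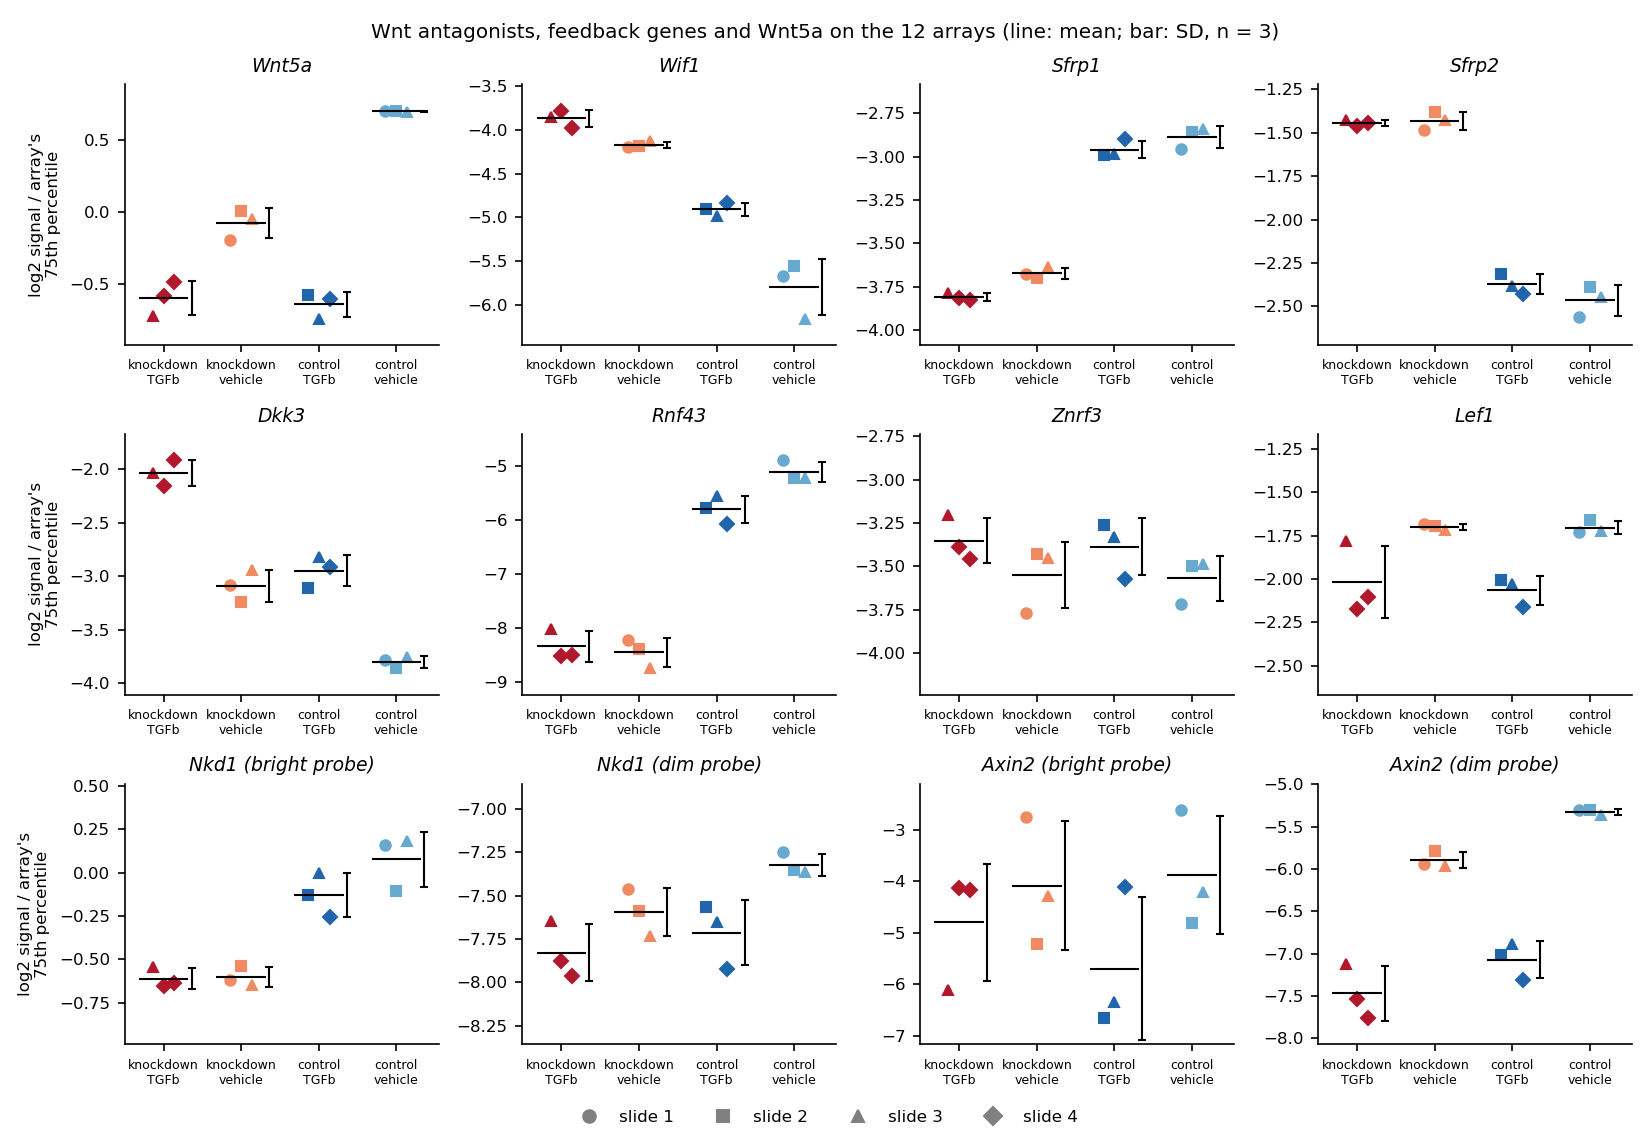
Level of each of the 12 probes (log2 of signal over the array's 75th percentile, vertical axis, a scale of its own in each panel) on the 12 arrays by group, with the marker shape giving the slide and the line and bar the mean and SD of 3 arrays. Wnt5a sits highest in control cells with vehicle (0.70 to 0.71), Rnf43 sits below -8 on all 6 knockdown arrays, and the brighter Axin2 probe differs between slides.

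Of the 10 genes, TGFb changed 3 in knockdown cells, where 9.47% of all genes tested were called, and 4 in control cells, where 10.1% were called, at a limma adjusted p under 0.05 over all genes. In knockdown cells Dkk3 rose and Wnt5a and Lef1 fell, of which Lef1 kept its call in 5 of 26 alternatives and not with the slide as a block (-0.15, limma adjusted p of 0.33). In control cells Dkk3 and Wif1 rose and Wnt5a and Lef1 fell. Axin2 was not called on the probe that stood for it, but fell with TGFb in both lines on its other probe and, on both probes, with the slide as a block. Knockdown changed 6 of the 10 with TGFb, where 28.9% of all genes were called, and 7 with vehicle, where 27.8% were called. With TGFb it raised Wif1, Sfrp2 and Dkk3 and lowered Sfrp1, Rnf43 and Nkd1, and with vehicle it lowered Wnt5a as well. The median log2 change of the 10 genes was -0.01 with TGFb in knockdown cells, -0.14 with TGFb in control cells, 0.05 with knockdown under TGFb and -0.10 with knockdown under vehicle, against medians of -0.02, -0.01, -0.01 and -0.02 over all genes in the same order. Arrays of the groups compared did not overlap for 24% of all genes with TGFb in knockdown cells, 22.1% with TGFb in control cells, 38.7% with knockdown under TGFb and 41.1% with knockdown under vehicle. The comparisons share groups of arrays. Each log2 change below is given ± SE, with 3 arrays in each group.

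Wnt5a (probe at chr14:29336664-29336723, build mm9, as are all probe positions) encodes a Wnt ligand best known for signalling through Frizzled and Ror receptors without beta-catenin. Its levels were -0.73, -0.58 and -0.49 in knockdown cells with TGFb, -0.19, 0.01 and -0.05 in knockdown cells with vehicle, -0.58, -0.75 and -0.60 in control cells with TGFb, and 0.71, 0.70 and 0.70 in control cells with vehicle. Control cells with vehicle stood above all other arrays, knockdown cells with vehicle lay between, and the 2 groups with TGFb overlapped. TGFb lowered Wnt5a by 1.44-fold in knockdown cells (log2 change -0.52 ± 0.07, limma adjusted p of 5.5e-04) and by 2.54-fold in control cells (-1.35 ± 0.07, limma adjusted p of 1.97e-07). The response in knockdown cells minus that in control cells was 0.83 ± 0.10 on the log2 scale, with a 95% interval from 0.60 to 1.05. Its limma adjusted p was 0.0145, and of all genes tested 20, or 0.0828%, were called for this difference. By raw p it ranked 9 of 24149, and it was the only one of the 10 Wnt genes called.

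With vehicle, knockdown cells had 1.72-fold less Wnt5a signal than control cells (-0.78 ± 0.07, limma adjusted p of 1.4e-05), while with TGFb the change was 0.04 ± 0.07, with an interval from -0.11 to 0.20. Within slide 3, which held all groups, TGFb changed Wnt5a by -0.68 in knockdown cells and -1.44 in control cells, a difference of 0.76. With the slide as a block the difference of responses was 0.80 (limma adjusted p of 0.0054). The difference missed the threshold when 1 of 4 arrays was left out, with limma adjusted p of 0.0541 and 0.0626 without knockdown TGFb replicates 3 and 2, 0.0529 without control TGFb replicate 3 and 0.0658 without control vehicle replicate 3, and values from 0.77 to 0.85. Over the 12 arrays, the genes with the pattern most like that of Wnt5a were Dll1, a Notch ligand, and LOC100048398, each with r of 0.978, as a description of arrays that share groups and slides.

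The secreted antagonists differed among themselves in both responses. Wif1 (chr10:120537079-120537138) encodes a secreted protein that binds Wnt ligands. Its levels were -3.85, -3.78 and -3.97 in knockdown cells with TGFb, -4.20, -4.18 and -4.13 in knockdown cells with vehicle, -4.91, -4.98 and -4.83 in control cells with TGFb, and -5.67, -5.56 and -6.16 in control cells with vehicle. The groups did not overlap, with every knockdown array above every control array and, within each line, every TGFb array above every vehicle array. Knockdown raised Wif1 by 1.04 ± 0.14 with TGFb and 1.63 ± 0.14 with vehicle (limma adjusted p of 2.0e-04 and 7.7e-06). TGFb changed it by 0.30 ± 0.14 in knockdown cells, which missed the threshold (limma adjusted p of 0.26), and raised it by 0.89 ± 0.14 in control cells (limma adjusted p of 1.2e-03). The responses to TGFb were not shown to differ between the lines, with a difference of -0.59 ± 0.20 and a limma adjusted p of 0.75. In slide 3 TGFb changed Wif1 by 0.28 in knockdown cells and 1.18 in control cells, and in slide 2 by 0.65 in control cells. With normexp background correction, which adds an offset of 50 to each signal, the changes were smaller, 0.98 for knockdown with vehicle and 0.53 for TGFb in control cells, and both were still called.

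Sfrp1 (chr8:24559438-24559497) and Sfrp2 (chr3:83577864-83577923) encode secreted Frizzled-related proteins, which carry a domain like the ligand-binding part of Frizzled receptors and bind Wnt ligands. Sfrp1 had levels of -3.79, -3.81 and -3.83 in knockdown cells with TGFb, -3.68, -3.70 and -3.64 in knockdown cells with vehicle, -2.99, -2.99 and -2.90 in control cells with TGFb, and -2.96, -2.86 and -2.84 in control cells with vehicle. Sfrp2 had levels of -1.43, -1.46 and -1.44 in knockdown cells with TGFb, -1.48, -1.38 and -1.43 in knockdown cells with vehicle, -2.31, -2.38 and -2.43 in control cells with TGFb, and -2.56, -2.39 and -2.45 in control cells with vehicle. The lines did not overlap for either gene, and they stood in opposite order: Sfrp1 was lower and Sfrp2 higher on every knockdown array. Knockdown lowered Sfrp1 by 1.80-fold with TGFb (-0.85 ± 0.06) and 1.72-fold with vehicle (-0.79 ± 0.06), with limma adjusted p of 2.6e-06 and 4.3e-06. It raised Sfrp2 by 1.90-fold with TGFb (0.93 ± 0.06) and 2.05-fold with vehicle (1.03 ± 0.06), with limma adjusted p of 9.7e-07 and 4.2e-07. Within slides the change ran from -0.92 to -0.72 for Sfrp1 and from 0.95 to 1.08 for Sfrp2, the same direction on each slide that held both lines.

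TGFb left Sfrp1 and Sfrp2 uncalled in both lines. The log2 change of Sfrp1 was -0.14 in knockdown cells, with an interval from -0.27 to 0.00, and -0.07 in control cells, with an interval from -0.21 to 0.06. That of Sfrp2 was -0.01 in knockdown cells, with an interval from -0.14 to 0.12, and 0.09 in control cells, with an interval from -0.04 to 0.22. The gene most like Sfrp2 over the 12 arrays was Chga, which encodes a protein of secretory granules (r of 0.999), and that most like Sfrp1 was Chml (r of 0.993).

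Dkk3 (chr7:119259556-119259615) encodes a secreted protein of the Dickkopf family whose action on Wnt signalling is less settled than that of Dkk1. Its levels were -2.03, -2.16 and -1.92 in knockdown cells with TGFb, -3.08, -3.24 and -2.94 in knockdown cells with vehicle, -3.11, -2.82 and -2.92 in control cells with TGFb, and -3.78, -3.86 and -3.76 in control cells with vehicle. Knockdown cells with TGFb were highest and control cells with vehicle lowest, and the other groups overlapped between them. TGFb raised Dkk3 by 2.07-fold in knockdown cells (1.05 ± 0.10) and 1.81-fold in control cells (0.85 ± 0.10), with limma adjusted p of 2.5e-05 and 1.2e-04. Knockdown raised it by 1.88-fold with TGFb (0.91 ± 0.10) and 1.64-fold with vehicle (0.71 ± 0.10), with limma adjusted p of 4.8e-05 and 2.7e-04. The difference of the TGFb responses was 0.20 ± 0.14 with an interval from -0.11 to 0.51. Dkk3 was the only gene of the set called in all 4 comparisons of 2 groups. Within slide 3 TGFb changed it by 0.91 in knockdown cells and 0.94 in control cells, and knockdown by 0.79 with TGFb and 0.81 with vehicle.

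**Figure D2:**
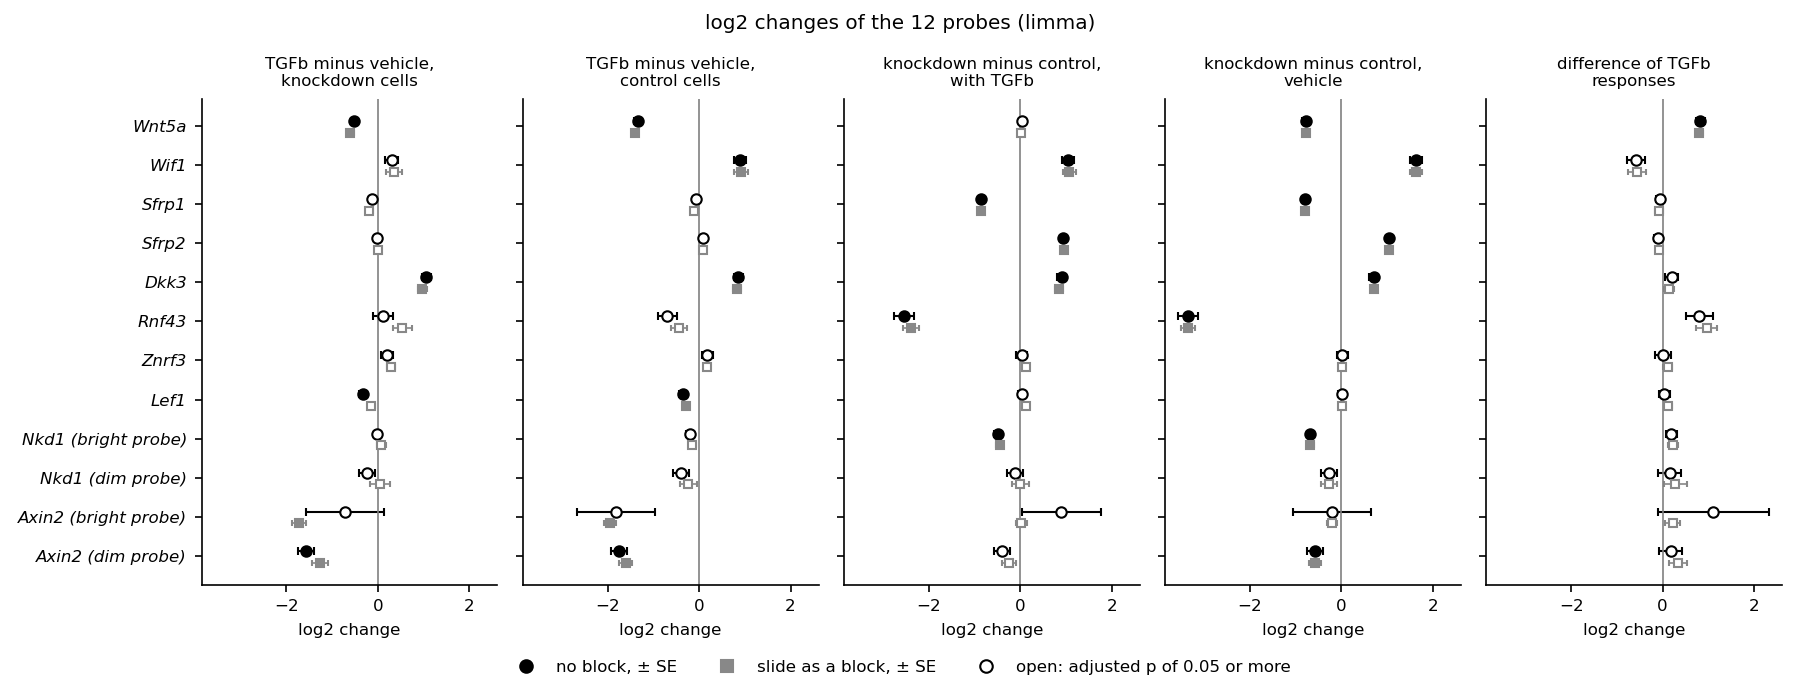
Log2 change (horizontal axis, ± SE) of each of the 12 probes in the 5 comparisons, without a block (circles) and with the slide as a block (squares), filled where the limma adjusted p was under 0.05 and open otherwise. Wnt5a is the only probe called for the difference of TGFb responses (0.83), and the brighter Axin2 probe is called for TGFb only with the slide as a block.

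Rnf43 and Znrf3 encode related transmembrane ubiquitin ligases that take Frizzled receptors off the cell surface, and R-spondins acting through Lgr receptors oppose them. Rnf43 (chr11:87548958-87549017) had levels of -8.02, -8.52 and -8.50 in knockdown cells with TGFb, -8.22, -8.39 and -8.75 in knockdown cells with vehicle, -5.77, -5.56 and -6.07 in control cells with TGFb, and -4.89, -5.21 and -5.21 in control cells with vehicle. Every knockdown array was below every control array by more than 1 log2 unit. The probe was well above background on all 6 control arrays, but on 1 of 3 knockdown arrays with TGFb and 1 of 3 with vehicle. It passed the filter on dim probes through the control arrays. Rnf43 was called lower with knockdown, at fitted log2 changes of -2.55 ± 0.21 with TGFb and -3.35 ± 0.21 with vehicle (limma adjusted p of 7.4e-06 and 8.7e-07). With 2 of 3 arrays in each knockdown group not well above background, the data do not fix the size of this fall. With normexp the changes were -0.74 and -1.19 and in the authors' deposited values -0.75 and -1.16, still called in each case.

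TGFb changed Rnf43 by 0.11 ± 0.21 in knockdown cells, where the signal was mostly at background, and by -0.70 ± 0.21 in control cells (limma adjusted p of 0.83 and 0.067). The control arrays with TGFb were all below those with vehicle, a separation seen for 22.1% of all genes in that comparison. Within slides the control cells' change was -0.56 and -0.35, and the slide block gave -0.43 (limma adjusted p of 0.18). Znrf3 (chr11:5180918-5180977) had levels of -3.21, -3.39 and -3.46 in knockdown cells with TGFb, -3.77, -3.43 and -3.45 in knockdown cells with vehicle, -3.26, -3.33 and -3.57 in control cells with TGFb, and -3.72, -3.50 and -3.49 in control cells with vehicle. All 4 groups of Znrf3 overlapped. Its change was 0.04 with knockdown under TGFb, with an interval from -0.23 to 0.30, and 0.02 under vehicle, with an interval from -0.25 to 0.29. TGFb changed it by 0.20 in knockdown cells, with an interval from -0.07 to 0.47, and by 0.18 in control cells, with an interval from -0.09 to 0.45. With the slide as a block the changes were 0.28 (interval from 0.10 to 0.46) and 0.17 (0.02 to 0.33). Neither was called (limma adjusted p of 0.065 and 0.16). Within slides TGFb changed Znrf3 by 0.25 in knockdown cells on slide 3, and by 0.24 and 0.16 in control cells on slides 2 and 3.

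Axin2 encodes the inducible Axin, a scaffold of the complex that destroys beta-catenin, and is widely used as a readout of canonical Wnt signalling. Lef1 encodes a DNA-binding partner of beta-catenin and is itself a Wnt target. Promoter sequence is shown for these members because TGFb lowered at least 1 probe of each, and because TCF and LEF factors and the SMAD proteins of the TGFb pathway bind short DNA motifs. The sequences are the 250 bases before a RefSeq gene start on the plus strand of GRCm38.p6. For Axin2 the window is chr11:108920099-108920348, and for Lef1, which had 4 promoters in the table, the one with the most motif matches is shown, at chr3:131156044-131156293. Capitals mark matches on either strand to the TCF/LEF core CTTTGA (read TCAAAG on the plus strand) or the SMAD motif CAGAC (or GTCTG).
Axin2: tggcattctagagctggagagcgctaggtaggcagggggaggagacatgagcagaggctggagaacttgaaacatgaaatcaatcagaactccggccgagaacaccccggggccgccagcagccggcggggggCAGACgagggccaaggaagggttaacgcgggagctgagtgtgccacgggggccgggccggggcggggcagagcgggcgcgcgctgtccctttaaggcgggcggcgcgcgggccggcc
Lef1: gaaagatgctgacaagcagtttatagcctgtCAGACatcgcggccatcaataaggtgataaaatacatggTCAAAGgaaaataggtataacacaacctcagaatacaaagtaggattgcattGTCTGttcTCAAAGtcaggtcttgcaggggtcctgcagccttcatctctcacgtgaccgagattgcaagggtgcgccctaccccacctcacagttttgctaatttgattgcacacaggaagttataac
The Lef1 window held 2 matches to the TCF/LEF core and 2 to the SMAD motif, while the Axin2 window held 1 SMAD match and 0 of the core. Promoters were found for 6 of the 10 genes, 10 promoters in all, and the Lef1 window was the only one of them with the TCF/LEF core. Over all 32851 promoters of the same length, 13.8% held the core and 42.2% the SMAD motif. The Lef1 window was picked for its matches, so its counts cannot be weighed against these shares. A match is a description of the letters and not a measured site.

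The 2 probes of Axin2 gave different pictures. The brighter probe (chr11:108812034-108812093), which stood for the gene in the test, had levels of -6.11, -4.14 and -4.17 in knockdown cells with TGFb, -2.75, -5.23 and -4.28 in knockdown cells with vehicle, -6.66, -6.35 and -4.11 in control cells with TGFb, and -2.62, -4.82 and -4.22 in control cells with vehicle. All groups overlapped, and arrays of the same slide and treatment lay together. The slide 1 arrays, all with vehicle, were highest at -2.75 and -2.62. The 3 arrays of slide 4, all with TGFb, lay between -4.17 and -4.11. On slide 3 the arrays were at -6.11 and -6.35 with TGFb and -4.28 and -4.22 with vehicle. Its residual SD of 1.23 stood at the 99.8th percentile of kept probes and was 0.147 once the slide was a block. Without a block TGFb changed it by -0.72 ± 0.86 in knockdown cells and -1.82 ± 0.86 in control cells (limma adjusted p of 0.69 and 0.28). With the slide as a block it fell, with log2 changes of -1.72 in knockdown cells and -1.95 in control cells (limma adjusted p of 4.8e-05 and 4.3e-06). Within slides the change was -1.82 in knockdown cells on slide 3, and -1.84 and -2.13 in control cells on slides 2 and 3.

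The dimmer Axin2 probe (chr11:108803927-108803986) had levels of -7.12, -7.53 and -7.76 in knockdown cells with TGFb, -5.94, -5.79 and -5.96 in knockdown cells with vehicle, -7.02, -6.89 and -7.32 in control cells with TGFb, and -5.30, -5.30 and -5.36 in control cells with vehicle. Every TGFb array was below every vehicle array, and the slides did not stand apart as they did for the other probe. Its processed signals on the TGFb arrays were only 20.6 to 30.4. In the authors' deposited log2 values, knockdown cells had 6.79, 6.59 and 6.65 with TGFb against 7.19, 7.23 and 7.26 with vehicle. Control cells had 6.69, 6.89 and 6.70 against 7.52, 7.50 and 7.56. The fall was smaller on that scale, so the data do not fix its size. Each kept probe was also tested on its own. The dimmer probe then fell with TGFb by 2.98-fold in knockdown cells (-1.57 ± 0.17) and 3.37-fold in control cells (-1.75 ± 0.17). Its limma adjusted p was 9.9e-05 and 3.6e-05, and 9.1% and 9.91% of kept probes were called in these comparisons. The difference of responses was 0.18 ± 0.25, with an interval from -0.36 to 0.72, a comparison in which 0.0734% of probes were called. With vehicle, knockdown gave the dimmer probe a change of -0.58 ± 0.17 (limma adjusted p of 0.0287, with 28.2% of probes called), where the brighter probe gave -0.20 with the slide as a block (limma adjusted p of 0.20). With TGFb the dimmer probe gave -0.40 ± 0.17 for knockdown (limma adjusted p of 0.12, with 29.4% of probes called) and the brighter one 0.02 with the block. Over the 12 arrays the 2 probes correlated with r of 0.35. Within slides, both probes were lower with TGFb, by log2 changes of -2.13 to -1.15, while knockdown was called on the dimmer probe with vehicle only.

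**Figure D3:**
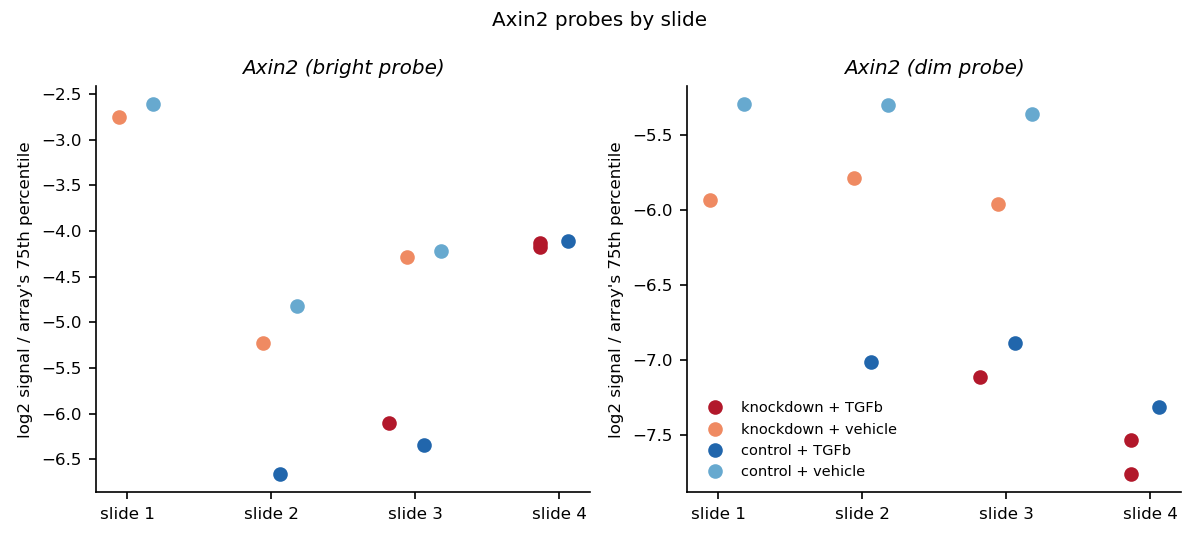
Levels of both Axin2 probes (log2 of signal over the array's 75th percentile, vertical axis) by slide, with 1 point for each array coloured by group. On slides 2 and 3, TGFb arrays sit below vehicle arrays for both probes, and the brighter probe also differs between slides, from -2.75 and -2.62 for slide 1 vehicle arrays to -4.82 and -5.23 for those of slide 2.

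The Lef1 probe, whose mapped ends span an intron-sized stretch (chr3:130907851-130926012), had levels of -1.78, -2.17 and -2.10 in knockdown cells with TGFb, -1.68, -1.69 and -1.72 in knockdown cells with vehicle, -2.01, -2.03 and -2.16 in control cells with TGFb, and -1.73, -1.66 and -1.73 in control cells with vehicle. TGFb arrays were below vehicle arrays in each line, with knockdown TGFb replicate 1 close to the vehicle arrays. TGFb lowered Lef1 by 1.25-fold in knockdown cells (-0.32 ± 0.09, limma adjusted p of 0.049) and 1.28-fold in control cells (-0.36 ± 0.09, limma adjusted p of 0.025). In knockdown cells the slide block gave -0.15 (limma adjusted p of 0.33), slide 3 alone gave -0.06, and the call held in 5 of 26 alternatives. Of the arrays left out in turn, it held without knockdown TGFb replicate 1 (-0.44) and was lost without each of the other 11. In control cells the block gave -0.28 (limma adjusted p of 0.0189), and slides 2 and 3 gave -0.35 and -0.30. There the call held in 20 of 26 alternatives. It was lost without control TGFb replicates 2 or 3 or without any 1 of the control vehicle replicates (limma adjusted p of 0.0567 to 0.0999). It was also lost with scaling to the array median (-0.36, limma adjusted p of 0.12). Knockdown changed Lef1 by 0.05 with TGFb, with an interval from -0.15 to 0.24, and by 0.00 with vehicle, with an interval from -0.19 to 0.20.

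Nkd1 encodes a cytoplasmic protein that binds Dishevelled and dampens Wnt signalling. Its brighter probe (chr8:91116160-91116219) had levels of -0.54, -0.66 and -0.64 in knockdown cells with TGFb, -0.62, -0.54 and -0.65 in knockdown cells with vehicle, -0.13, 0.00 and -0.26 in control cells with TGFb, and 0.16, -0.11 and 0.18 in control cells with vehicle. Every knockdown array was below every control array, and within each line the treatments overlapped. Knockdown lowered this probe by 1.40-fold with TGFb (-0.48 ± 0.08) and 1.60-fold with vehicle (-0.68 ± 0.08), with limma adjusted p of 1.3e-03 and 1.3e-04. TGFb changed it by -0.01 in knockdown cells, with an interval from -0.20 to 0.18, and by -0.21 in control cells, with an interval from -0.39 to -0.02 (limma adjusted p of 0.20, or 0.0337 at -0.30 without control vehicle replicate 2). The dimmer probe (chr8:91118468-91118527) lay between -7.96 and -7.25 on the 12 arrays, and knockdown changed it by -0.12 ± 0.18 with TGFb and -0.27 ± 0.18 with vehicle (limma adjusted p of 0.68 and 0.31), so the fall of Nkd1 rests on the brighter probe. The probes correlated with r of 0.63 over the 12 arrays.

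To place the 10 genes in the pathway, 101 other Wnt genes were listed by role, and 88 of them were tested. The lists were drawn up with earlier results of these data known. Their shares therefore describe the listed genes and are not a test of the pathway. TGFb raised 18 and lowered 11 in knockdown cells, and raised 19 and lowered 12 in control cells, or 33.0% and 35.2% of the 88, against 9.47% and 10.1% of all genes. Knockdown raised 20 and lowered 16 with TGFb, and raised 20 and lowered 15 with vehicle, or 40.9% and 39.8%, against 28.9% and 27.8% of all genes. For the difference of TGFb responses 0 of the 88 were called by limma, and 11 had an unadjusted p under 0.05. The median log2 change of the 88 was 0.02 with TGFb in knockdown cells, -0.01 with TGFb in control cells, 0.09 with knockdown under TGFb and 0.02 with knockdown under vehicle, against -0.02, -0.01, -0.01 and -0.02 over all genes in the same order. Genes named below were those with the largest changes among the called genes of each list, at most 3 for each comparison, with their values in the matching comparison beside them. The counts of each list stand against the same shares of all genes.

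Among the 15 other ligand and secretion genes tested, 3 rose and 2 fell with TGFb in each line. Those that rose were Wnt9a (log2 change 1.52 in knockdown and 1.23 in control cells), Wnt10b (1.12 and 1.29) and Wnt7b (0.71 and 0.71). Wnt10b was dim with vehicle, at mean levels of -7.04 in knockdown and -7.34 in control cells, so the data do not fix the size of its rise. Wnt9a stood at -6.29 in knockdown cells with vehicle. Knockdown raised 4 and lowered 2 of the ligand and secretion genes with TGFb and with vehicle, where 28.9% and 27.8% of all genes were called. It changed Wnt9a by -1.25 with TGFb and -1.53 with vehicle, and Wnt3 by 1.07 and 1.06. Wnt5b was higher by 0.79 and 0.93, and Wnt6 by 0.87 and 0.65. Wnt3 and Wnt6 were dim in control cells, at mean levels of -6.78 and -7.44 with TGFb and -6.80 and -7.30 with vehicle. Of the 19 receptor and R-spondin genes, 2 rose and 4 fell with TGFb in knockdown cells, and 4 rose and 4 fell in control cells. The co-receptor gene Lrp6 rose by 0.62 in knockdown and 0.54 in control cells, Fzd4 by 0.39 and 0.67, and Fzd8 changed by -0.61 and -0.52. Knockdown raised 6 and lowered 2 of these genes with TGFb, where 28.9% of all genes were called. With vehicle it raised 7 and lowered 2, where 27.8% were called. Lgr5, a receptor for R-spondins, was higher in knockdown cells by 0.62 with TGFb and 0.73 with vehicle.

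Of the 18 other antagonist genes, 7 rose and 2 fell with TGFb in knockdown cells, and 6 rose and 2 fell in control cells. Cxxc4, which encodes an inhibitor that binds Dishevelled, rose by 1.89 in knockdown and 1.52 in control cells, its relative Cxxc5 by 1.35 and 1.29, Apcdd1 by 1.45 and 1.16, and Nkd2, the paralogue of Nkd1, by 1.02 and 1.17. Knockdown raised 3 and lowered 2 of the antagonist genes with TGFb, where 28.9% of all genes were called. With vehicle it raised 5 and lowered 2, where 27.8% were called. Knockdown raised Sfrp4, another secreted Frizzled-related gene, by 0.62 with TGFb and 0.89 with vehicle. Frzb changed by 0.21 with TGFb, which was not called, and rose by 0.70 with vehicle, and Dact1 changed by -0.73 and -0.49, called in both. Of the 13 nuclear factors, 3 rose and 0 fell with TGFb in each line by limma (2 had an unadjusted p under 0.05 and a fall in each line). Those that rose were Tcf7l1 (0.81 in knockdown and 0.73 in control cells) and the co-repressor genes Tle3 (0.80 and 0.71) and Tle1 (0.45 and 0.35). Knockdown changed Tle3 by -0.71 with TGFb and -0.80 with vehicle, and Tle1 by -0.62 and -0.72.

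The list of other targets had 11 genes tested, of which TGFb raised 2 and lowered 4 in each line. Id2, which TGFb family signals also control, rose by 2.12 in knockdown and 2.13 in control cells, and Myc, likewise a gene under both pathways, changed by -1.40 and -1.83. Sp5 differed by -0.47 in knockdown cells, which was not called, and changed by -0.84 in control cells, where 1 of 3 arrays with TGFb was well above background. Sox9 rose by 0.56 in knockdown cells and differed by 0.21 in control cells, which was not called. Knockdown raised 4 and lowered 2 of the target genes with TGFb, where 28.9% of all genes were called. With vehicle it raised 2 and lowered 3, where 27.8% were called. It changed the cyclin gene Ccnd1 by -0.89 with TGFb and -0.79 with vehicle, and Jun by -0.97 and -0.77, and it raised Tnfrsf19 by 1.16 and 0.90. Of the 14 cytoplasmic genes, 1 rose with TGFb in each line, the beta-catenin gene Ctnnb1 (0.27 in knockdown and 0.21 in control cells), where 9.47% and 10.1% of all genes were called. None of the 14 fell by limma, and 2 in knockdown and 1 in control cells had an unadjusted p under 0.05 and a fall. Knockdown raised 3 and lowered 4 of these genes with TGFb, where 28.9% of all genes were called. With vehicle it raised 2 and lowered 2, where 27.8% were called. Apc2 was higher in knockdown cells by 1.06 with TGFb and 1.00 with vehicle.

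**Figure D4:**
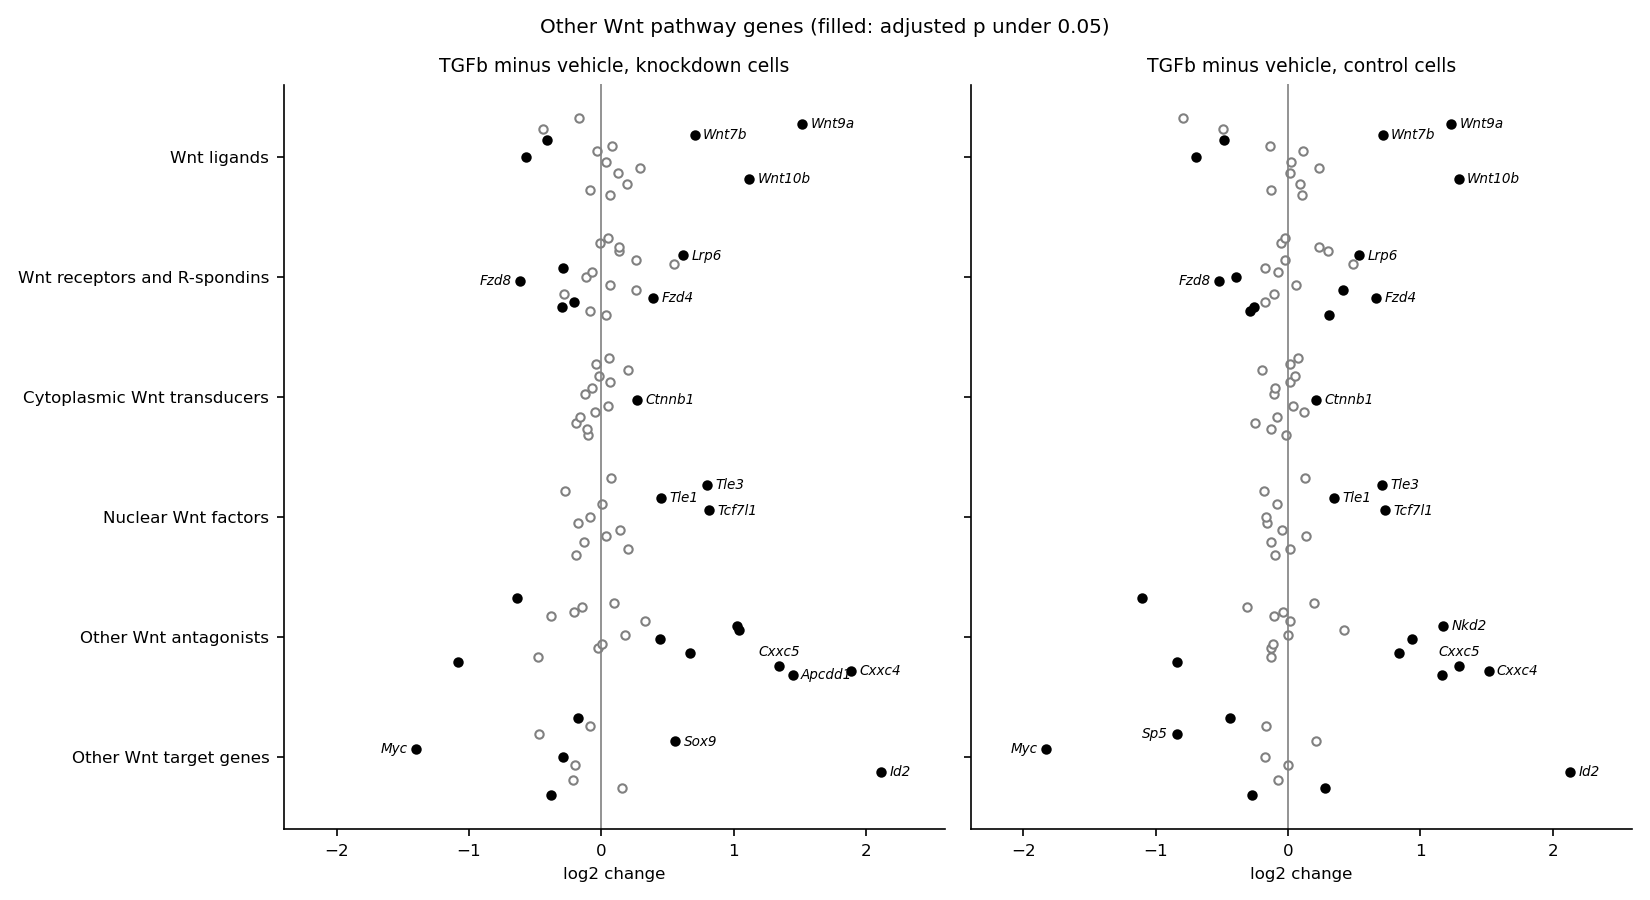
Log2 change with TGFb (horizontal axis) of 88 other Wnt pathway genes by role, in knockdown cells (left) and control cells (right), with 1 point for each gene, filled where the limma adjusted p was under 0.05. Id2 lies highest (2.12 and 2.13) and Myc lowest (-1.40 and -1.83) in both panels.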

How the data were processed

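RNA of 12 samples was measured on 1-colour Agilent mouse arrays, 3 for each of 4 groups, which were taken from the labels. Total RNA was amplified from oligo-dT primers and labelled with Cy3, per the labels. The deposited scanner files hold intensity on a linear scale, read with Agilent Feature Extraction 10.7.3.1, with probe positions on mm9, per the file headers. The deposited table of the authors' processed values holds log2 values, with a shared median of 7.93 in all 12 columns. Each column matched its own array best, which gives its scale and direction. How its background was corrected, and how it was normalized, is not given in the sources used here.

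The 1377 control spots were left out, and spots of 1 probe were averaged. Outlier spots were left out of the average unless all spots of the probe were outliers. Of the 39429 gene probes, 399 were printed more than once. Each processed signal was divided by its array's 75th percentile over the 43020 gene spots before taking log2. A probe entered the tests if some group had it well above background on all of its arrays, and the brightest such probe stood for the gene. Names came from the files, or through RefSeq accessions for 26055 probes. Groups were compared in 1 fit over 12 arrays with limma 3.58.1 in R 4.3.3 (eBayes with a trend, 8 residual and 3.08 prior degrees of freedom), two-sided, with Benjamini-Hochberg adjustment over all 24149 genes and a threshold of 0.05. The test was checked on simulated data for TGFb in control cells over 24149 genes: 80% of 100 genes changed by 1 and 93% of 100 changed by 2 on the log2 scale were recovered, and 9 of 182 calls were false. The simulated noise was independent between arrays, with no slide effect. In the real data, deviations of arrays on the same slide correlated at 0.18 to 0.56, positive in 12 of 12 pairs. The share of false calls in the real data was therefore not measured. Precision is limited by the 3 arrays a group.

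The members, gene lists, named-gene rule (all 10 members, and up to 3 called genes with the largest change per list and comparison) and alternatives were chosen with earlier results of these data known. Arrays sharing a replicate number did not deviate together, with correlations of their deviations from -0.52 to 0.56, positive in 6 of 18 pairs. Promoter sequences are from RefSeq (GRCm38.p6), and no mm9 annotation was used here to place the probes in exons.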

Additional observations from a re-analysis of the deposited data

Results flagged for a closer look

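The response of Wnt5a to TGFb differed between the lines, and the test of the difference itself brought it here. The log2 change with TGFb was -0.52 in knockdown cells and -1.35 in control cells, a difference of 0.83 (limma adjusted p of 0.0145). All 3 knockdown arrays with TGFb were below all 3 with vehicle, and likewise in control cells. In 22 of 26 alternatives the difference was still called, and its adjusted p ran from 0.00152 to 0.0658 over them. Not all of these could change it. Fitting only the groups compared repeats the main fit for this difference, and the other probe of Axin2 and Nkd1 leaves the Wnt5a values unchanged. The call was lost only in fits with 1 array left out. Groups of 3 arrays are too small to be searched for single outlying arrays.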

How the results depend on the processing

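Each result was computed again under 26 alternatives, apart from 2 stricter thresholds on the calls given below, and 2 of the 26 (the other probe of Axin2 and Nkd1, without and with the slide as a block) were added after seeing the data. Called changes of Dkk3, Sfrp1, Sfrp2 and Wif1, the falls of Wnt5a and, in the 25 alternatives that kept its probe, the changes of Rnf43 with knockdown were called with the same sign in every one of the 26. Keeping only probes well above background on all arrays gave no value for Rnf43. The changes of Nkd1 with knockdown were not called on its other probe, where the change with TGFb was 0.0033 with the slide as a block, a turned sign.

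Scaling to the array median gave 1460 genes for TGFb in knockdown cells, 4328 for knockdown with vehicle (51.0% higher, against 44.9%) and 5 for the difference of responses (2 higher and 3 lower, against 11 and 9). Array weights gave 5276 for TGFb in knockdown cells, 10585 for knockdown with TGFb and 94 for the difference (44.7% higher, against 55.0%). A slide block gave 43 for the difference, with the other calls given above. At an adjusted p under 0.01 the counts were 1391 and 1568 for TGFb in knockdown and control cells, 4561 and 4351 for knockdown with TGFb and vehicle, and 4 for the difference, with 0 of the 10 Wnt genes by limma (3 had an unadjusted p under 0.05). At an adjusted p under 0.05 and at least 1.5-fold the counts were 823 and 963 for TGFb in knockdown and control cells and 1683 and 1670 for knockdown with TGFb and vehicle, and 1 of the 10 genes, Dkk3, was called for TGFb in knockdown cells, without Wnt5a (1.44-fold) or Lef1. The cause of these shifts was not tested beyond the stricter thresholds' own construction.

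With arrays left out in turn, counts ran from 1608 to 2385 for TGFb in knockdown cells (2 to 3 of the 10 genes), 1834 to 2471 in control cells (3 to 4), 5388 to 7106 for knockdown with TGFb (6 to 6), 5180 to 6948 with vehicle (7 to 7), and 4 to 27 for the difference (0 to 1). The difference fell to 4 without knockdown TGFb replicate 3 or control vehicle replicate 3, 6 without control TGFb replicate 3, 7 without knockdown TGFb replicate 2, 8 and 11 without knockdown vehicle replicates 2 and 3, and 13 without control TGFb replicate 1 or 2.

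Replicate numbers did not pair the samples, and 4 of 12 arrays correlated best with an array of their own number against 9 of 12 with one of their own slide. With the replicate block the difference of responses had 11 genes, Wnt5a among them (adjusted p of 0.0491), Lef1 lost its call for TGFb in knockdown cells (0.0642) and Rnf43 was called for TGFb in control cells (0.0431). Rnf43 was also called there without a trend (0.0495) and in the authors' values (0.0275), Axin2 for TGFb in control cells with the mean of its probes (-1.79, adjusted p of 0.0119), and Sfrp1 for TGFb in knockdown cells with array weights (-0.16, adjusted p of 0.0454). Among the members, signal over background limits Rnf43 in knockdown cells and the dimmer Axin2 and Nkd1 probes.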
